A study of Mus musculus with 34 samples.

Results

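Deletion of Bcl11b at 2 times in early mouse thymocyte development was compared gene by gene, through the 2076 genes that both deposited RNA-seq count tables list. The members were every gene present in both tables, which was all 2076 genes of the Vav1-iCre table and 2076 of the 24505 genes of the Lck-Cre table. For each gene the change in homozygous (HOM) cells was computed within its own table, and the Vav1-iCre change was then subtracted from the Lck-Cre change. All 15 libraries used were of double-negative (DN) thymocytes of the C57BL6/J strain, sorted as YFP+ CD25+, where YFP reports Cre activity and CD25 marks the DN2 and DN3 stages. The late-deletion groups were Bcl11b flx/flx Lck-Cre (Lck HOM, 5 libraries, no stage named) and Bcl11b +/+ Lck-Cre at the DN3 stage (Lck WT DN3, 5 libraries). The early-deletion groups were Bcl11b flx/flx Vav1-iCre (Vav HOM, 3 libraries) and Bcl11b +/+ Vav1-iCre (Vav WT, 2 libraries), neither with a stage in its label. Every control therefore carried the Cre transgene of its HOM group.

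Bcl11b is a zinc-finger transcription factor that thymocytes switch on at the DN2 stage, when they commit to the T lineage. Early thymocytes that lack it keep progenitor features and take on features of natural killer (NK) and other innate lymphoid cells. Vav1-iCre is active in blood stem and progenitor cells, before Bcl11b is switched on, whereas the Lck promoter drives Cre later, in DN thymocytes that have already begun to express Bcl11b. The comparison thus asks what an early loss and a late loss have in common, and which genes depend on the time of loss.

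The authors' Vav1-iCre table holds a selected list, so its own changes describe how genes were chosen. Its header names an edgeR comparison of HOM against WT and HET (flx/+) libraries together. After centring, no listed gene had a change between -0.99 and 0.99 on the log2 scale in that comparison, with 1104 genes lower and 972 higher in HOM. Vav HOM differed from Vav WT for 2050 of 2076 genes (98.7%) in an edgeR quasi-likelihood test at an adjusted p under 0.05, of which 959 (46.2%) were higher and 1091 (52.6%) lower, shares that the selection set. The Lck-Cre values had no part in that choice. Lck levels are given below as RPKM, and Vav levels as counts divided by a scale factor of each library (scaled counts), because the full depth of the Vav libraries is unknown. Totals over the listed genes ran from 1584874 to 2836293 counts in the Vav libraries, and totals over all genes from 17285214 to 43105091 in the Lck libraries.

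Table, Cre line, sequencing depth and the stage of the control are one and the same split here, so in every difference between the Lck and Vav changes they cannot be told apart from the time of deletion. Nothing in the labels says that the libraries of a group came from separate mice, and p-values then measure the spread between libraries. Lck WT DN3 replicates 1 and 2 differed by a chi-square per gene of 4.78, against 19.4 to 46.9 for every other pair of that group. Whether these libraries are independent was not tested, and the fits treated them as such. As these are bulk samples, fewer cells of a type and less RNA per cell cannot be told apart either. The defining T-lineage transcripts were present in all 10 Lck libraries, with Cd3e at 228 or more CPM (a count scaled to the library total) and Dntt at 618.5 or more. Keratin and other epithelial transcripts stood out in Lck HOM replicates 2 and 3, where Krt8 was at 230.3 and 100.4 CPM, against 20.7 CPM in replicate 1 and at most 2.34 in the other 7 libraries. Clu, also an epithelial transcript, was at 333.5 and 132.4 CPM in those libraries and at most 1.29 in the rest. Lck WT DN3 replicate 5 held 37.8 CPM of Cpa3, a progenitor and mast-cell protease, against at most 1.46 in the other 4 WT DN3 libraries. In Lck HOM replicate 4, Hba-a1 was at 23.7 CPM and Cd4 at 20.6 CPM. Hba-a1 was at 6.31 CPM in Lck HOM replicate 1 and at most 0.557 in the rest. Cd4 was at 13.5 and 8.62 CPM in Lck WT DN3 replicates 1 and 2 and at most 5.12 in the rest. The sex-linked transcript Xist was at 1435 CPM in Lck WT DN3 replicate 4 and at most 0.576 in the other 4 WT DN3 libraries. It was at 0 to 23.2 CPM in Lck HOM. B-cell Cd79a and myeloid Csf1r stayed at or under 2.19 CPM in all 10. Myeloid Lyz2, however, was at 4.82 to 9.19 CPM in Lck WT DN3 and at 0.478 to 2.80 in Lck HOM. Ccl5, a transcript of mature T cells, was at 12.2 and 8.41 CPM in Lck HOM replicates 1 and 4 and at most 2.26 in the rest. Krt8, Krt18, Krt19, Clu, Cd4, Hba-a1, Cd79a and Csf1r are outside the Vav1-iCre list, so that a check with them was not made in the Vav libraries. Lyz2 and Ccl5 are in the list, and Lyz2 was at 281.2 to 294.8 scaled counts in Vav WT and 13.91 to 22.95 in Vav HOM.

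Bcl11b transcript fell in both models, to 44.6% of WT with Lck-Cre and to 34.5% with Vav1-iCre. In mm9 the gene lies at chr12:109148613-109241624 on the minus strand. Its RPKM was 124, 114, 89.1, 103 and 101 in Lck WT DN3 and 33.02, 55.3, 55.0, 58.3 and 46.3 in Lck HOM. Scaled counts were 32080 and 18730 in Vav WT and 9096, 8904 and 8311 in Vav HOM. Both HOM groups lay below all of their WT libraries. On the log2 scale the change was -1.16 (SE 0.14) with Lck-Cre and -1.53 (SE 0.24) with Vav1-iCre, and the difference of 0.37 (SE 0.29) was not called (adjusted p = 0.434). Counts were made over all exons, and the exons that the floxed allele loses are not given in the sources used here, so these values are transcript levels and do not measure the share of cells with a deletion.

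The repressed targets that the series' title names, Id2 and Zbtb16, were high in both models. Id2 encodes an inhibitor of E proteins, the transcription factors that promote the T-cell fate. Its RPKM was 4.70, 3.84, 4.0, 3.34 and 3.61 in Lck WT DN3 and 63.3, 52.2, 57.7, 50.1 and 47.3 in Lck HOM. In the Vav table its scaled counts were 161 and 195 in WT and 2535, 2621 and 2063 in HOM. The groups were far apart in each table, and the log2 changes of 3.74 (SE 0.12) and 3.76 (SE 0.26) differed by -0.03 (SE 0.25, adjusted p = 0.962). With the Vav HET libraries as control the difference became 0.71 (adjusted p = 0.0366), the opposite sign. Zbtb16 encodes PLZF, the zinc-finger factor of innate-like lymphocytes. It rose from 0.0113, 0.0286, 0.0113, 0.0132 and 0.105 RPKM in Lck WT DN3 to 17.6, 17.1, 22.6, 16.8 and 14.4 in Lck HOM, and from 30.8 and 49.5 to 4043, 4723 and 3250 scaled counts with Vav1-iCre. WT DN3 replicate 5, the library with Cpa3, held the highest of the WT values. The difference of 2.08 (SE 0.64) was not called (adjusted p = 0.0783), was 3.37 without that library (adjusted p = 7.13e-04), and was -0.40 (adjusted p = 0.660) when the 4 Lck WT DN2 libraries were the control.

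A 300-base window around the start of Id2 is shown because Id2 rose by about the same amount in both models and E proteins, which its product inhibits, bind E-boxes. It is followed by that of Sox13, 1 of the 2 genes whose difference between the models was called in each fit that left out 1 library. Both are RefSeq sequences of GRCm38.p6, minus strand, from 250 bases before to 50 after the start, at chr12:25096043-25096342 for Id2 and chr1:133424163-133424462 for Sox13. Capitals mark the E-box letters CAGCTG.
Id2: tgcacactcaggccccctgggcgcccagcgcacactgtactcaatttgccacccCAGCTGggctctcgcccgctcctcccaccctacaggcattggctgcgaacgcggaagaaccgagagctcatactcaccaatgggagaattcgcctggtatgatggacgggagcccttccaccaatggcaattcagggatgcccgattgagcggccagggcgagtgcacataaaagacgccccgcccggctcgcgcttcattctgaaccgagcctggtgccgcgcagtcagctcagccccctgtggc
Sox13: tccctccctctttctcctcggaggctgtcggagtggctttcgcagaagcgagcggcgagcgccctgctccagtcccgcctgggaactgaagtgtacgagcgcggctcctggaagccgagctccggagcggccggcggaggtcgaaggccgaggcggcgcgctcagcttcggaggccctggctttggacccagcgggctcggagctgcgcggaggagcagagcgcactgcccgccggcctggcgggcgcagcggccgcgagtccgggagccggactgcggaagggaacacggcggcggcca
Both strands were searched for the Runx core TGTGGT, the E-box CAGCTG and the TCF/LEF core CTTTGA. The Id2 window holds 1 E-box and neither of the other motifs, and the Sox13 window holds none of the 3. Among 27025 promoters in the RefSeq table the shares with a match were 16.9%, 16.1% and 16.2% in that order. Among the 1553 shared genes with an entry they were 15.3%, 19.4% and 13.3%, and a match describes letters only.

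Of the genes that could be tested in both tables, nearly all moved the same way after early and late deletion. Between Lck HOM and WT DN3, 5285 of 11717 genes tested (45.1%) were called, of which 2443 (20.9%) were higher and 2842 (24.3%) lower. Of the 2076 members, 1484 passed the Lck filter of a mean RPKM of at least 1 in either group and 592 did not. Among the 632 tested members higher in the Vav HOM list, 599 were called higher in Lck HOM, 0 lower and 33 not called. Among the 852 tested members lower in the Vav HOM list, 649 were called lower in Lck HOM, 2 higher and 201 not called. These shares, 94.8% and 76.2%, stand beside the 20.9% and 24.3% over all genes. The sign of the Lck change was that of the Vav list for 629 of 632 and for 816 of 852 genes. Both changes were called in the same direction for 1247 genes, 599 higher and 648 lower. A member that passed the filter only through its high group had to be high there, and 340 higher and 252 lower members have no Lck test.

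**Figure D1:**
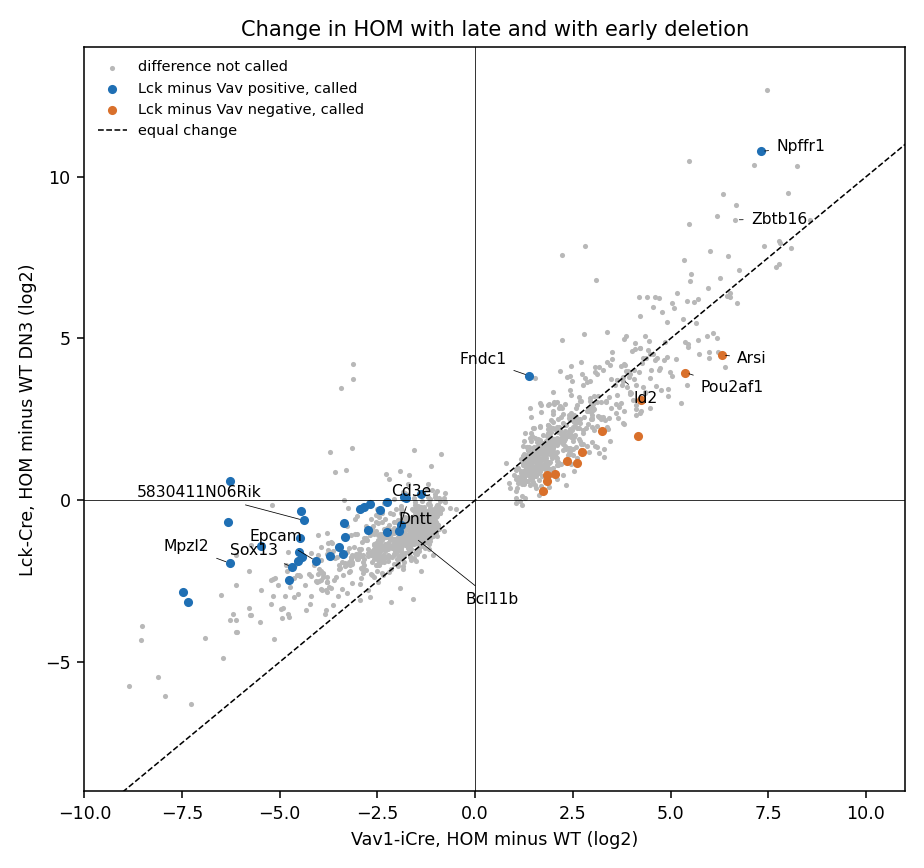
Each point is 1 of the 1484 genes tested in both tables, with its log2 change in Vav1-iCre HOM on the horizontal axis and in Lck-Cre HOM on the vertical axis. Blue and orange points are called differences of changes. Genes lower in Vav HOM sit above the dashed line of equal change in 802 of 852 cases, while tested genes higher in Vav HOM have medians of 1.88 (Lck) and 2.1 (Vav). The empty band near a Vav change of 0 is the authors' selection.

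Across these 1484 genes the 2 changes had a Pearson r of 0.92 and a Spearman rho of 0.912. Genes are not independent replicates, and the empty band between the 2 directions of the list raises a pooled correlation. Within the higher genes r was 0.878 and within the lower genes 0.657. The 2 comparisons share no library.

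Genes switched on in both models included, besides Zbtb16, several that were nearly silent in WT thymocytes. Cxcr5, the chemokine receptor of lymphoid follicles, was at 0.0977 RPKM or less in every Lck WT DN3 library and at 18.5, 15.5, 10.6, 14.8 and 11.9 in Lck HOM. Its scaled counts were 3.85 and 25.3 in Vav WT and 2422, 2338 and 1965 in Vav HOM, and its changes of 7.85 and 7.39 differed by 0.51 (SE 0.66, adjusted p = 0.644). Dapl1 had 0 counts in all 5 Lck WT DN3 libraries and 15.9 to 97.0 RPKM in Lck HOM. It went from 4.50 and 69.5 to 7444, 4799 and 6265 scaled counts with Vav1-iCre. Wnt6, a secreted Wnt ligand, and Trpm1, a cation channel, followed the same course with Lck changes of 7.55 and 9.11 and Vav changes of 6.46 and 6.67. Art2a-ps and Art2b rose by 7.22 or more in both tables, but they are close copies of each other and reads may have been split between them.

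Genes nearly extinguished in both models included Scn4b, a sodium-channel beta subunit. Its RPKM fell from 25.9, 21.9, 34.0, 45.8 and 17.3 to 0.0182, 0.197, 0.402, 0.164 and 1.44 with Lck-Cre, where HOM replicate 5 was highest. Scaled counts fell from 2599 and 2498 to 0, 2.11 and 29.0 with Vav1-iCre. Ccr9, the receptor for the thymic chemokine CCL25, kept 3.43% of its WT level with Lck-Cre and 1.15% with Vav1-iCre. Myl10, a myosin light chain, kept 7.76% and 1.44%, and Gtf2ird1, a transcription factor, 8.24% and 3.70%. None of these 4 differences of changes was called, with adjusted p from 0.152 for Ccr9 to 0.485 for Gtf2ird1.

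The models parted in how far transcripts fell. Among the 852 lower genes the median change was -1.11 with Lck-Cre and -1.79 with Vav1-iCre, against -0.03 over all genes tested in the Lck table. The loss was smaller with Lck-Cre for 802 of the 852 genes (94.1%). Among the 632 higher genes the medians were 1.88 and 2.1, and 438 genes (69.3%) rose less with Lck-Cre. The median difference was 0.89 over the 1102 lower genes with a test of it and -0.27 over 948 higher genes. Because the list was chosen on the Vav change and not on the Lck change, large Vav changes were favoured by the choice itself, and these medians are descriptions. With the Vav HET libraries as control the median difference of higher genes was 0.09 and that of lower genes 0.74.

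Separation widened with the size of the early loss, in bins set on the Vav change itself. That change also enters the separation, so genes binned for extreme Vav values tend to show a wider gap in any case. The medians per bin are therefore descriptions. The 38 tested genes with a Vav change below -5 kept a median of 1.43% of the WT level with Vav1-iCre and 10.3% with Lck-Cre. For the 83 genes between -4 and -3 the medians were 9.14% and 27.9%, and for the 472 genes between -2 and -1 they were 37% and 53.4%. Among gains, the 56 tested genes with a Vav change above 5 had median log2 changes of 6.05 with Vav1-iCre and 6.35 with Lck-Cre, and the 290 genes between 1 and 2 had 1.52 and 1.22. These Lck medians are raised by the Lck filter, since a gene silent in WT enters it only if high in Lck HOM, and 86 genes above 5 did not pass it. Over the 122 genes above 5 with a test of the difference, which did not need that filter, the median difference was -0.57. The same median was 3.46 over the 79 genes below -5.

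**Figure D2:**
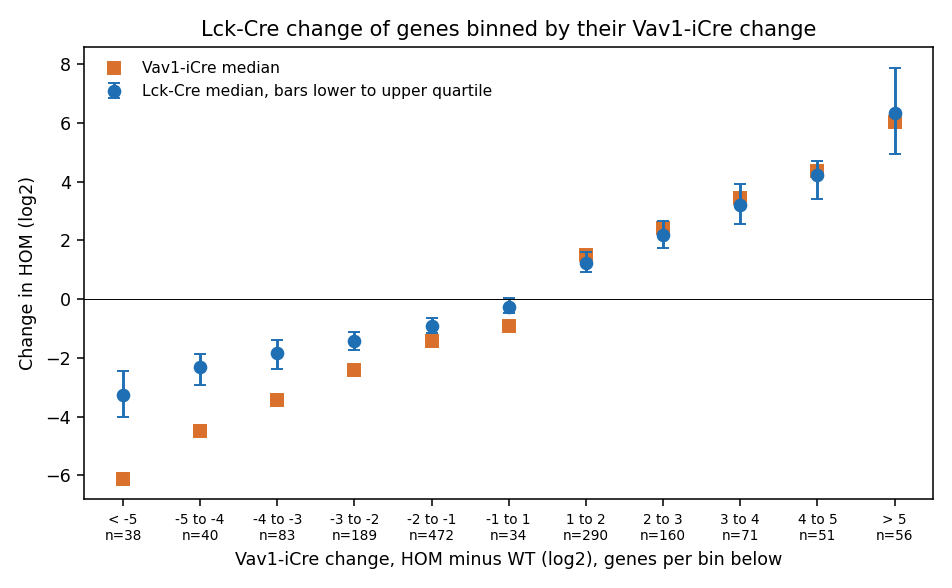
Genes tested in both tables are binned by their Vav1-iCre change (horizontal axis, log2), and the vertical axis gives the median change in each model (log2), with the range from the lower to the upper quartile for Lck-Cre. In the bin below -5 the medians are -6.12 and -3.28, and in the bin above 5 they are 6.05 and 6.35, the latter over genes that passed the Lck filter.

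Taken alone, every Vav HOM library had a larger median change than every Lck HOM library. The genes were listed on the change of these same Vav HOM libraries, so the choice itself favoured that order. The Vav medians also rest on the scale set between the Vav HOM and control libraries. Relative to the WT mean of their table, the 852 lower genes had median levels of 38.5%, 48.8%, 55.9%, 37.5% and 57.9% in Lck HOM replicates 1 to 5. The Vav HOM replicates were at 26.5%, 29.4% and 32.3%, below all 5 Lck HOM libraries. For the 632 higher genes the medians were 394.9%, 384.3%, 348.4%, 315.4% and 343.2% in Lck HOM and 456.8%, 435.6% and 408.5% in Vav HOM. The 2 Lck HOM libraries with most epithelial transcripts, replicates 2 and 3, lay inside the range of the other 3 for both sets. These medians used log2(RPKM + 0.1) in the Lck table and log2(scaled count + 1) in the Vav table.

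**Figure D3:**
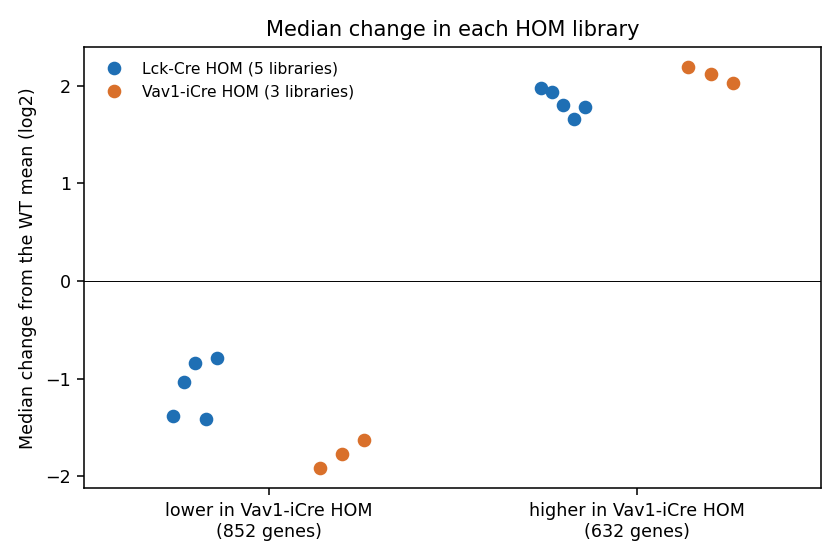
Each point is 1 HOM library, and the vertical axis is the median log2 change from the WT mean of its table over the genes lower (left) or higher (right) in the Vav list. Lower genes range from -1.41 to -0.79 in the 5 Lck-Cre libraries and from -1.92 to -1.63 in the 3 Vav1-iCre libraries. Higher genes range from 1.66 to 1.98 and from 2.03 to 2.19.

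Gene by gene, the difference of changes was called for 52 of 2050 genes tested (2.54%) by the edgeR interaction test over all 15 libraries, and 521 genes had an unadjusted p under 0.05. It was positive for 38 genes (1.85%) and negative for 14 (0.683%), and each of the 52 was at least 2-fold. Of the 38 positive genes, 35 were lower in Vav HOM, so the late deletion left more transcript, and 3 were higher in Vav HOM. All 14 negative genes were higher in Vav HOM, so the late deletion gave the smaller rise. Among the 35, 20 were called lower in Lck HOM too, 12 were not called and 3 were not tested. The 32 tested ones kept a median of 51.1% of the WT level with Lck-Cre and 8.26% with Vav1-iCre, values that the call itself selected. The median SE of a difference over the genes tested was 0.55. Within these calls Gm3383, Gm3500, Gm2897, Gm7457 and LOC100861615 are close copies of one family, and their read assignment is uncertain.

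That count leans on single libraries. Without WT DN3 replicates 1 to 5 in turn it was 18, 23, 23, 26 and 87, and without Lck HOM replicates 1 to 5 it was 139, 30, 29, 197 and 81. Without Vav WT replicate 1 or 2 it was 80 or 6, and without Vav HOM replicates 1 to 3 it was 3, 19 and 95. Without both Lck HOM replicates with most epithelial transcripts, 20 genes were called, 18 of them among the 52. DESeq2 called 267 genes, which held all 52. With Lck WT DN2 as control 75 were called, of which 22 were among the 52. Sox13 and 5830411N06Rik were called in each of the 15 fits that left out 1 library, and no other gene was.

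**Figure D4:**
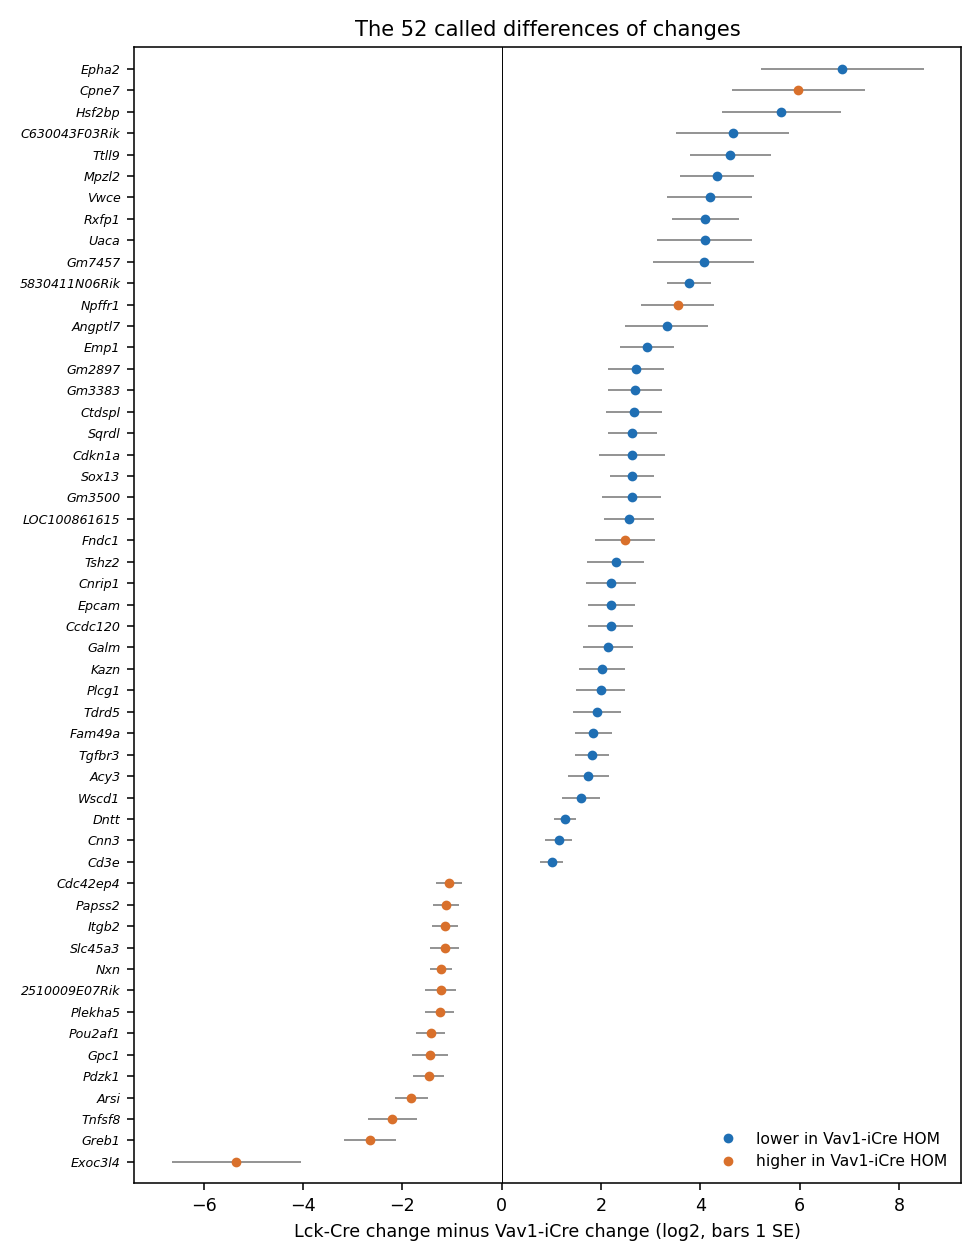
The 52 genes with a called difference are ordered by the Lck-Cre change minus the Vav1-iCre change (horizontal axis, log2), with bars of 1 SE. Blue points are lower and orange points higher in Vav HOM. The 38 positive values run from Cd3e up to Epha2, and the 14 negative values from Cdc42ep4 down to Exoc3l4.

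Sox13, an HMG-box transcription factor known for its part in gamma-delta T cells, fell far further with early deletion. At chr1:135278877-135320789 (mm9, minus strand), its RPKM was 25.4, 26.1, 24.0, 25.8 and 33.3 in Lck WT DN3 and 5.60, 5.40, 8.32, 4.43 and 9.71 in Lck HOM. Scaled counts were 3659 and 2279 in Vav WT and 66.4, 140 and 138 in Vav HOM. No HOM library reached its WT group, and 23.9% of the WT level was left with Lck-Cre against 3.88% with Vav1-iCre. The difference was 2.62 (SE 0.44, adjusted p = 0.0133), and it was 2.80 against Lck WT DN2 (adjusted p = 0.0139). Across the fits without 1 library it ran from 2.24 to 2.92.

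Dntt and Cd3e, which serve the assembly of T-cell receptor genes and the signalling of the receptor respectively, were lowered in both models and further in Vav HOM. Dntt encodes terminal transferase, which adds nucleotides at V(D)J joints, and lies at chr19:41103765-41134015 (mm9, plus strand). Its RPKM was 613, 621, 691, 755 and 724 in Lck WT DN3 and 301, 396, 397, 314 and 387 in Lck HOM. In Vav WT it had 61860 and 45860 scaled counts, and in Vav HOM 10300, 12150 and 11180. All HOM libraries lay below their WT groups, with 50.5% and 20.8% of the WT level left, a difference of 1.28 (SE 0.22, adjusted p = 0.0133). Against Lck WT DN2, where Dntt was at 735 to 1145 RPKM, the difference was 0.87 (adjusted p = 0.0717).

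Cd3e encodes the epsilon chain of the CD3 signalling complex and lies at chr9:44806826-44817673 (mm9, minus strand). Its RPKM was 443, 424, 330, 371 and 328 in Lck WT DN3 and 174, 230, 234, 160 and 224 in Lck HOM. In the Vav table it had 15920 and 17150 scaled counts in WT and 4480, 4317 and 3971 in HOM. The groups did not overlap in either table, and 51.7% against 25.7% of WT was left. The difference of 1.01 (SE 0.24, adjusted p = 0.0425) was close to the threshold and was called in 5 of the 15 fits without 1 library, with adjusted p from 0.0134 to 0.138. Its neighbours Cd3d and Cd3g had differences of 1.01 (adjusted p = 0.0781) and 1.25 (adjusted p = 0.0691), which were not called.

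Epcam, an adhesion molecule of epithelia that DN thymocytes also express, is at chr17:88035319-88050467 (mm9, plus strand). Its RPKM was 21.8, 20.9, 24.0, 23.9 and 21.4 in Lck WT DN3 and 11.4, 2.99, 4.99, 6.51 and 5.93 in Lck HOM. Scaled counts were 1713 and 1887 in Vav WT and 88.2, 147 and 83.5 in Vav HOM. The lowest Lck HOM value was in replicate 2, the library with most keratin transcript. The highest was in replicate 1, which held Krt8 at 20.7 CPM and Krt19 at 9.51 CPM. The difference was 2.21 (SE 0.48, adjusted p = 0.0262), and 2.53 without Lck HOM replicates 2 and 3 (adjusted p = 0.00879), a fit that keeps replicate 1.

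**Figure D5:**
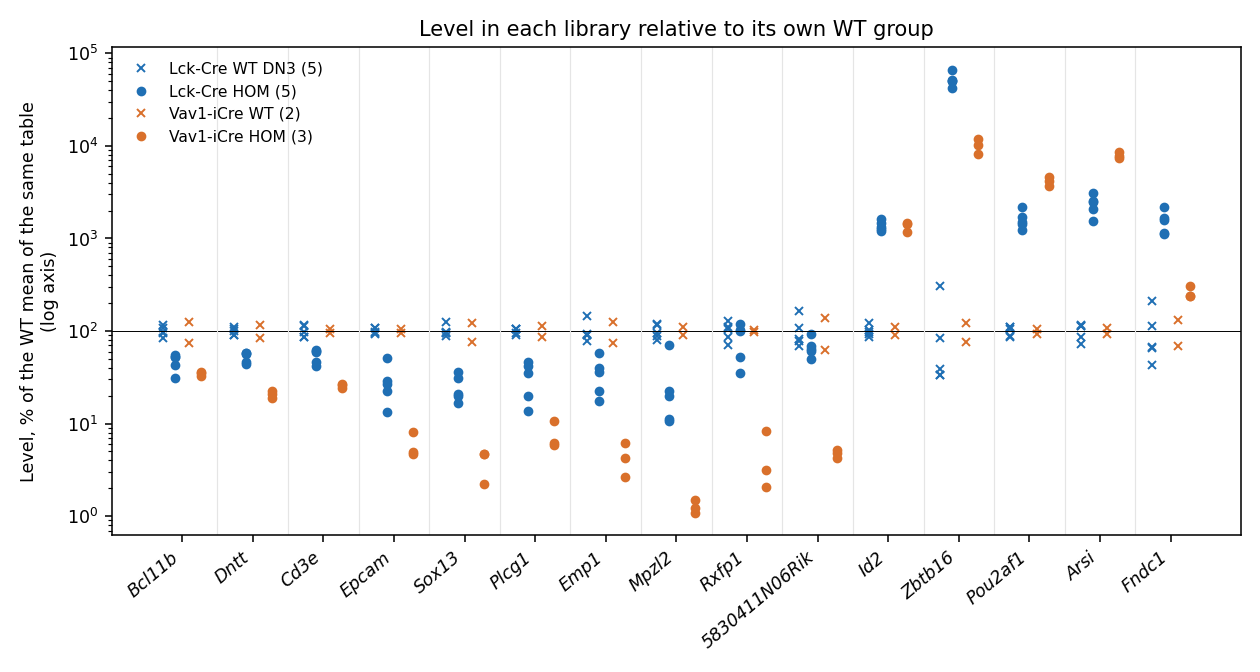
For each gene the points are single libraries, and the vertical axis is the level as a percent of the WT mean of the same table on a log axis, in RPKM for Lck-Cre (blue) and scaled counts for Vav1-iCre (orange). Crosses are WT and filled circles HOM libraries. Sox13 lies at 16.5% to 36.1% in Lck HOM and 2.24% to 4.73% in Vav HOM, while Id2 lies at 1210% to 1620% and 1160% to 1470%.

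The smallest adjusted p of a difference belonged to 5830411N06Rik, at chr7:147433277-147485690 (mm9, plus strand). Its RPKM was 51.1, 24.2, 21.9, 33.9 and 25.7 in Lck WT DN3 and 21.3, 20.3, 29.4, 19.2 and 15.8 in Lck HOM, groups that overlapped. Scaled counts fell from 6667 and 14450 in Vav WT to 446, 513 and 551 in Vav HOM. That left 65% of WT with Lck-Cre and 4.77% with Vav1-iCre, a difference of 3.77 (SE 0.44, adjusted p = 7.37e-04). It was called under every other setting run, at 2.30 against Lck WT DN2, where the gene was at 48.4 to 127 RPKM. Rxfp1, the relaxin receptor, showed the same shape at a lower level. It was at 1.62 to 2.95 RPKM in Lck WT DN3 and 0.793 to 2.72 in Lck HOM, whereas its scaled counts went from 157 and 147 to 4.83, 3.17 and 12.8 with Vav1-iCre (difference 4.10, SE 0.67, adjusted p = 0.0133).

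Mpzl2, Emp1, Plcg1, Tgfbr3, Uaca and Cdkn1a were also lower in both models and further with Vav1-iCre. Mpzl2, an immunoglobulin-type adhesion protein first described in the thymus, was at 52.0, 40.8, 38.4, 50.6 and 34.8 RPKM in Lck WT DN3. Lck HOM had 4.62, 8.64, 9.67, 4.79 and 30.2, with replicate 5 far above the other 4. In the Vav table it fell from 3406 and 4142 to 41.1, 57.0 and 46.4 scaled counts, for a difference of 4.34 (SE 0.75, adjusted p = 0.0133). Emp1, a multi-span membrane protein known from epithelia, kept 33.2% and 4.37% of WT (difference 2.92, SE 0.55, adjusted p = 0.0161). Its highest Lck HOM value, 12.8 RPKM against 3.91 to 8.96 in the other 4, was in replicate 2, the library with most keratin transcript. Plcg1, the phospholipase activated by T-cell receptor signals in mature cells, kept 30.2% and 7.57% (difference 2.0, SE 0.49, adjusted p = 0.0443), and was called in 5 of the 15 fits without 1 library. Tgfbr3, a co-receptor for TGF-beta, kept 52.8% and 14.9% (difference 1.82, SE 0.35, adjusted p = 0.0161). These 3 were chosen after their values were seen. Uaca, which like Mpzl2 was highest in Lck HOM replicate 5 (18.6 RPKM against at most 4.72), had a difference of 4.08 (SE 0.96, adjusted p = 0.0425), called in 6 of the 15. Cdkn1a, the cell-cycle inhibitor p21, kept 26.9% and 4.34% of WT (difference 2.63, SE 0.67, adjusted p = 0.0493), but was called in 3 of the 15.

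Genes that rose less after late deletion included Pou2af1, Arsi and Tnfsf8. Pou2af1, a transcriptional coactivator best known from B cells, went from 2.04, 2.4, 1.96, 2.54 and 2.55 RPKM in Lck WT DN3 to 50.2, 34.4, 28.2, 33.2 and 39.2 in Lck HOM. Its scaled counts went from 162 and 143 to 6432, 5576 and 7049 in the Vav table, and the changes of 3.94 and 5.38 differed by -1.43 (SE 0.29, adjusted p = 0.0217). Arsi, an arylsulfatase, rose from 9.29, 7.0, 9.06, 9.07 and 5.82 RPKM to 249, 167, 198, 123 and 203, and from 249 and 293 to 23040, 21290 and 19970 scaled counts. Its difference of -1.82 (SE 0.33, adjusted p = 0.0161) turned to 0.47 (adjusted p = 0.431) against Lck WT DN2, where Arsi was at 1.34 to 2.77 RPKM. Tnfsf8, the ligand of CD30, had Lck and Vav changes of 1.97 and 4.17 (difference -2.20, SE 0.49, adjusted p = 0.0336). Shortfalls were also called for Nxn, a thioredoxin-family protein (-1.22, SE 0.23), Pdzk1, a scaffold protein (-1.47, SE 0.31), and Gpc1, a cell-surface proteoglycan (-1.44, SE 0.37). Of these, Gpc1 was not called in Lck HOM, at 122.7% of WT against 332.2% with Vav1-iCre, and its difference was called in 3 of the 15 fits without 1 library. That of Tnfsf8 was called in 7.

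In 3 genes the late deletion gave the larger rise: Fndc1, Npffr1 and Cpne7. Fndc1, a fibronectin-type protein, went from 0.725, 0.426, 0.277, 0.433 and 1.38 RPKM to 7.48, 14.1, 10.8, 10.2 and 7.35 with Lck-Cre, and from 730 and 1408 to 3254, 2535 and 2552 scaled counts with Vav1-iCre. Its difference of 2.48 (SE 0.61, adjusted p = 0.0443) turned to -0.60 (adjusted p = 0.420) against Lck WT DN2, where it was at 3.89 to 8.19 RPKM. It was called in 5 of the 15 fits without 1 library. Npffr1, a neuropeptide receptor, had 1 count in all 5 Lck WT DN3 libraries together, and Cpne7 had 0, so the size of their differences rests on the floor of the Lck WT counts. Npffr1 reached 13.4 to 18.4 RPKM in Lck HOM, and Cpne7 0.277 to 1.40.

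With all libraries, called opposite changes were limited to Ugt1a7c and Ugt1a6a, named for being the only such pair. They are overlapping genes of 1 glucuronosyltransferase locus that share exons. Ugt1a7c was at 0.234, 6.13, 2.31, 0 and 0.213 RPKM in Lck HOM replicates 1 to 5 and at most 0.237 in Lck WT DN3, so the rise was confined to the 2 libraries with most epithelial transcripts. In the Vav table it fell from 19.9 and 31.6 to 1.21, 4.22 and 1.16 scaled counts. Neither difference was called (adjusted p = 0.0684 for Ugt1a7c and 0.0638 for Ugt1a6a). Without Lck HOM replicates 2 and 3, neither gene was among those called in opposite directions, and Dnmt3l and Jchain, both lower in Vav HOM, were. With all libraries Dnmt3l was not called in Lck HOM (adjusted p = 0.0579) and Jchain did not pass the Lck filter.

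The gene lists were chosen with earlier results of these data known. Of 28 T-lineage and pre-T-cell-receptor genes, 10 are shared, 8 lower and 2 higher in Vav HOM. All 8 lower ones were called lower in Lck HOM, beside 76.2% of all tested members of the lower set. Of the 2 higher ones, 1 was called higher (Cd2) and 1 was not called (Ets2). All 28 were tested in the Lck table, where 14 were called lower and 4 higher, beside 24.3% and 20.9% of all genes. Over the 10 shared genes the median change was -1.08 with Lck-Cre and -2.11 with Vav1-iCre, and the median difference 1.01. That stands beside 0.89 over all lower genes, to which 8 of the 10 belong, and 0.43 over all shared genes. The differences of Dntt and Cd3e were called. Cd6, a co-receptor of T cells, kept 18.4% and 2.75% of WT (difference 2.73, SE 0.74, adjusted p = 0.0593, not called). Of 19 shared NK, innate lymphoid and cytotoxic genes, all were higher in Vav HOM, beside 972 of all 2076 members. Only 10 passed the Lck filter, 9 of which were called higher, beside 94.8% of all tested higher members. The median difference over the 18 with a test of it was -0.81, beside -0.27 over all higher genes. The count of called differences was 0, beside 2.54% of all genes tested. Fcer1g, a signalling adaptor, had changes of 6.42 and 5.17, Cd160 of 4.02 and 4.70, Il2rb, the beta chain of an interleukin receptor, of 4.58 and 5.98, and Nfil3, a transcription factor of NK and innate lymphoid cells, of 4.03 and 4.50. The 9 that failed the Lck filter included receptors of mature NK cells. Ncr1 was at a mean of 0 RPKM in Lck WT DN3 and 0.183 in Lck HOM, against 0 and 102 scaled counts in the Vav groups. Klrk1 had means of 0.0320 and 0.296 RPKM, against 1.58 and 211 scaled counts. Eomes and Tbx21, T-box factors of NK cells, were likewise not tested in the Lck table and had differences of -3.86 (SE 1.78, adjusted p = 0.190) and -2.96 (SE 1.22, adjusted p = 0.150).

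Other lists moved less evenly. Among 6 shared Notch genes, Notch3 was lower in both, with changes of -1.96 and -2.07. Of the genes that Notch signals raise, Heyl, Nrarp and Trib2 were called higher in both. Dtx1 was called higher with Vav1-iCre (1.64) and not called with Lck-Cre (0.16). Hes1 was lower in the Vav list. In all, 1 of the 6 was called lower in Lck HOM, 3 higher and 2 not called. Heyl had changes of 4.36 and 5.15 (difference -0.78, SE 0.22, adjusted p = 0.0662). Of 8 shared progenitor genes Kit rose from 9.43 to 49.7 mean RPKM with Lck-Cre and from 2684 to 13330 mean scaled counts with Vav1-iCre, changes of 2.33 and 2.31. Nfe2, Erg and Mycn were called lower with Vav1-iCre and not called with Lck-Cre. Lck WT DN3 replicate 5 was highest for Nfe2 (21.3 RPKM against at most 8.13) and Erg (17.5 against at most 7.69), and Lck HOM replicate 4 for Mycn (18.9 against at most 2.61). Among 7 shared genes tied to gamma-delta T cells, Sox13 had the 1 called difference, while Cd163l1 rose by 4.51 and 4.48. Of 4 shared immediate-early genes, which respond within minutes to stimulation or to handling of cells, 1 (Nr4a1) was called lower in Lck HOM, at changes of -2.31 and -2.36. The share called lower was 76.2% among all tested members of the lower set, to which these 4 belong. No difference was called in the lists of Notch, progenitor, Id and E protein, PLZF-associated, ILC2 and ILC3, homing, double-positive, survival, immediate-early, myeloid or mature T-cell genes, which hold 1 to 11 shared genes each. Beside the 2.54% called over all genes tested, a count of 0 or 1 in lists of this size says little about them. Of the 2 shared cell-cycle genes Cdkn1a was called, of the 4 shared B-cell genes Pou2af1, and of the 2 shared epithelial genes Epcam. Of the 8 epithelial genes tested in the Lck table, 6 were called higher and 2 lower in Lck HOM, the 2 being the shared Epcam and Cldn4. Erythroid and sex-linked lists have no shared gene.

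Read from the other side, much of the late response was in the early list. Of the 1439 genes called at least 2-fold in Lck HOM (12.3% of those tested), 993 were in the Vav list, which is 69% of the Lck genes and 47.8% of the list. In the list were 84.5% (470 of 556) of the genes lower in Lck HOM and 59.2% (523 of 883) of those higher. The 523 include Ugt1a7c and Ugt1a6a, which the list has as lower. Absence from the Vav list says that a gene missed the authors' selection, and its Vav change is not known here.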

How the data were processed

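Both deposited tables hold counts, although the submitters named the files for RPKM: per the file headers, the authors' values are unnormalized HOMER read counts over exons in mm9, condensed to 1 row per gene, and all are whole numbers. Trimmomatic (033), the aligner STAR (2.4.0) with RSEM (1.2.25), HOMER, and edgeR (3.6.8) are the tools listed in the submitters' processing notes. Per the labels, RNA of 300000 cells was read as 50-nt single ends. RPKM values were computed here from the deposited counts, lengths and library totals. The Vav table is the authors' selection, so the scale between its HOM and control libraries was set by centring the gap around 0 change, with TMM within each.

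Changes were tested with edgeR 4.0.16 (R 4.3.3, quasi-likelihood, Benjamini-Hochberg, called at an adjusted p under 0.05), in each table and, for the difference of changes, in 1 fit of 4 group means over genes with at least 10 counts in the 10 Lck libraries (2050 of 2076). The joint fit gives each difference, which can depart slightly from the subtraction of the 2 separate changes. The scripts were tested on simulated data. In all, 10 columns of the Lck table (WT DN2 and HET DN3) lacked 26 values each and were realigned by symbol, with 114 genes of unsettled order left out there. They enter only the alternatives. For 82 shared genes the tables count another transcript.

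Named genes were Bcl11b, Id2, Zbtb16 and the 4 markers, then up to 8 of each class (called in both, called differences of either sign, larger Lck change) with at least 100 scaled counts, and 4 per list. A gene that this rule names is not reported here. Members and lists were chosen with earlier results of these data known. Alternatives covered DESeq2 1.42.0, the Vav scale, filters, controls, a replicate block and left-out libraries.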

Additional observations from a re-analysis of the deposited data

Results flagged for a closer look

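The 52 called differences between the Lck-Cre and Vav1-iCre changes are listed here because the same contrast gave 2 different effects by a test of the difference itself.

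Among 172 pairs of a named gene and an Lck group of 5 libraries, 14 had 1 library standing far from the other 4 by Dixon's criterion. Only groups with a value of at least 1 RPKM could be flagged, so fewer than 172 pairs were open to it. The criterion's nominal chance rate of about 1 in 20 therefore does not apply to all 172. Lck WT DN3 replicate 5, the library with Cpa3 transcript, accounted for 5 of them. It was high for Sox13 (33.3 RPKM against 24.0 to 26.1), Nfe2 (21.3 against 4.35 to 8.13), Erg (17.5 against 5.32 to 7.69) and Tyrobp, an adaptor of NK and myeloid cells (4.19 against 0.361 to 0.523), and low for Egr1 (3.44 against 5.63 to 6.40). Lck HOM replicate 5 was high for another 5, all of them lower in Vav HOM: Scn4b (1.44 RPKM against at most 0.402), Fam163b (4.05 against at most 0.826), Mpzl2 (30.2 against at most 9.67), Uaca (18.6 against at most 4.72) and the kinase gene Blk (5.32 against at most 3.80). Lck HOM replicate 4 was high for Hsf2bp (1.99 against at most 0.607) and Mycn (18.9 against at most 2.61). Lck HOM replicate 3, with epithelial transcripts, was high for the immediate-early genes Jun (35.6 against at most 11.7) and Egr1 (19.8 against at most 4.96).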

How the results depend on the processing

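Direction held better than the number of calls. Genes called the same way in both models numbered 1247, and 1022 to 1503 under the other settings. The 52 called differences (38 positive, 14 negative) became 267 (220, 47) with DESeq2, 113 (105, 8) with all groups in the fit and 20 (16, 4) without Lck HOM replicates 2 and 3. Positive calls rose to 62 with the Vav scale set by column totals, and negative calls to 39 with Lck control WT DN2. Chosen after seeing the data, Vav control HET gave 237 (206, 31), and leaving out Lck HOM replicates 1, 2 and 3 gave 82 (65 positive). Leaving out 1 library in turn, the calls ranged from 3 to 197 (positive 3 to 163, negative 0 to 35) and opposite calls from 0 to 5. The median Lck change of higher genes was 2.27 with no filter and 1.41 against WT DN2, and their median difference -0.68 against WT DN2 and 0.09, reversed, with Vav control HET. With that control the differences of Id2 (0.71), Heyl (1.21) and Il9r (1.84) were reversed. With Lck control WT DN2, those of Arsi (0.47) and Fndc1 (-0.60) were. In no fit without 1 library was a called difference of a named gene reversed. The causes of these shifts were not tested.

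Same-numbered libraries did not deviate together (correlation of residuals -0.129 to 0.035 in the Lck and -0.101 and 0.005 in the Vav table). The numbers were therefore not used as pairs in the main fits. These few correlations cannot show whether such libraries share a mouse or batch, which was not tested. A replicate block gave 8 called differences (8 positive, 0 negative) and 0 opposite calls. Vav WT has 2 libraries, and when 1 is left out the other is assumed to vary like the other groups.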
